A study of Mus musculus with 8 samples.

Results

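Astrocytes clear glutamate from the synaptic cleft, convert it to glutamine, buffer potassium, bicarbonate and water, and share these loads through gap junctions. When tissue is injured or inflamed they can become reactive, a state in which intermediate filament genes such as Gfap and Vim and acute-phase genes such as Lcn2 and Serpina3n rise. In the nucleus accumbens, a reward region of the ventral striatum, glutamate uptake by astrocytes is known to matter for responses to addictive drugs. The 32 genes described here are markers of astrocyte identity, transport and homeostasis, together with reactive genes. They were chosen by gene symbol, and each symbol matched 1 of the 22337 rows of the deposited table. Of the 32 genes, 26 were counted as homeostatic and 6 as reactive.

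Nucleus accumbens tissue came from male mice of the inbred strain C57BL/6 that had received morphine, an opioid (4 libraries), or saline (4 libraries), and was profiled by RNA-seq. The series title calls the morphine exposure chronic; the sources used here give neither its dose, route and length nor the age of the mice. Whether each replicate was its own animal is not in the labels, so the spread behind each p-value is that of these libraries and may be technical. Values are FPKM, fragment counts divided by transcript length and by library size, which allow levels of different genes to be compared within a library. The files hold no read totals, so depth is unknown and no counting interval is given. Each log2 change is the morphine mean of log2(FPKM + 1) minus the saline mean, which understates the change of genes with values around 1. Adjusted p-values are limma's, by Benjamini-Hochberg over 12536 genes that reached an FPKM of 1 in at least 4 libraries, with a threshold of 0.05.

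Libraries differed in neuron markers and in mitochondrial transcripts, both between the groups and, for saline replicate 3, within the saline group. Markers of striatal projection neurons summed to between 295 and 446 FPKM in the morphine libraries. In the saline libraries they summed to 5439.9 FPKM in replicate 3 and to between 1119 and 1344.5 in the other saline libraries. Saline replicate 3 therefore stood apart, also with the lowest sum of cortical glutamatergic neuron markers (85.0 FPKM, against 281 to 302 in the other saline libraries and 331 to 391 in the morphine libraries). Counts of astrocyte genes that fell are also given without that library. Mitochondrially encoded transcripts made up 6.09% to 7.94% of the summed FPKM in morphine libraries and 9.09% to 12.6% in saline libraries. In each of these measures the groups did not overlap, so such differences cannot be told apart from an effect of morphine. In bulk tissue, fewer astrocytes and less RNA per astrocyte cannot be told apart.

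Homeostatic astrocyte genes were mostly lower with morphine, and 3 of them fell: the P450 gene Cyp2d22, the bicarbonate transporter gene Slc4a4 and Ndrg2. Of the 32 genes, 29 passed the filter on low values (26 homeostatic and 3 reactive), 3 fell and 26 did not pass the test, while none rose. Among all genes tested, 1.48% fell and 1.04% rose past the same threshold. The median log2 change was −0.40 over the 26 homeostatic genes and −0.30 over the 3 reactive genes tested, against 0.01 over all genes tested. Without saline replicate 3 the median was −0.43 over the homeostatic and −0.22 over the reactive genes. A negative change was found in 25 of the 26 homeostatic genes and in 2 of the 3 reactive genes, against 48.0% of all genes tested. All 4 morphine values lay below all 4 saline values in 9 of the 26 homeostatic genes and in none of the 3 reactive genes tested, against 6.10% of all genes tested. At an unadjusted p under 0.05 (limma), 17 of the homeostatic genes were lower, against 10.1% of all genes tested, and none was higher, against 10.0%. The count of genes that fell depended on single libraries. It was 4 without saline replicate 3, where Clu, a secreted chaperone gene, passed as well, and 4 without saline replicate 4, where Acsbg1 passed as well. Leaving out saline replicate 1 gave 2 genes, leaving out morphine replicate 1 or 2 gave 1 gene, Cyp2d22, and leaving out morphine replicate 3 or 4 or saline replicate 2 gave 0 genes.

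**Figure D1:**
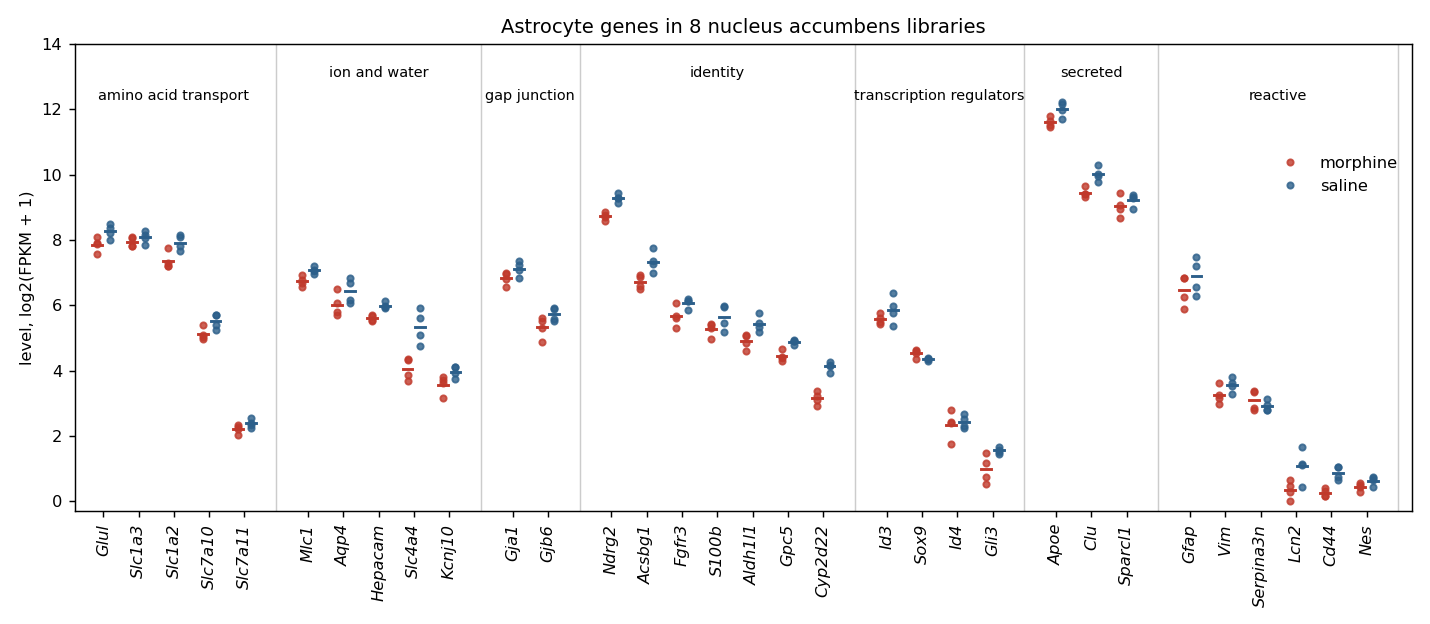
Level of each of the 32 genes in each library, as log2(FPKM + 1), with morphine libraries in red to the left of saline libraries in blue; short bars are group means over 4 libraries and vertical lines separate gene roles. Apoe was the highest gene and Lcn2, Cd44 and Nes were the lowest.

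**Figure D2:**
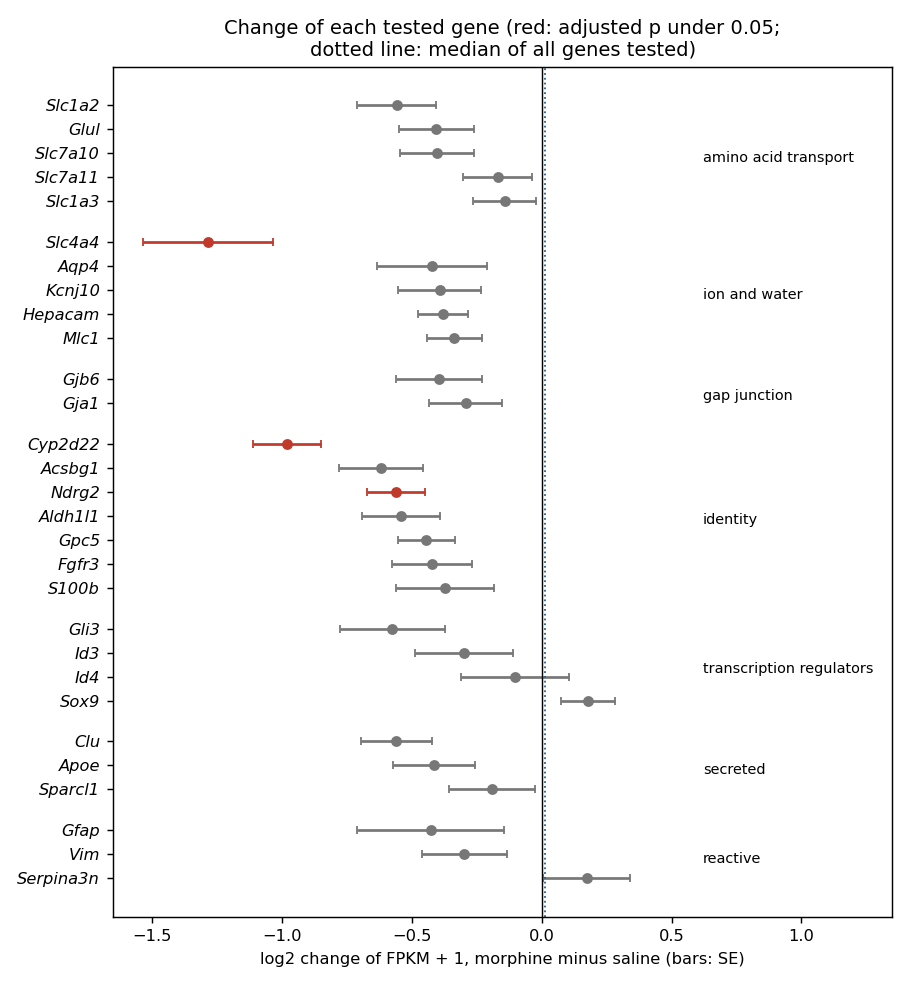
Log2 change of FPKM + 1 (morphine minus saline) of the 29 genes tested, ordered by role, with bars for the SE; red marks an adjusted p under 0.05 and the dotted line is the median of all genes tested, 0.01. Cyp2d22, Slc4a4 and Ndrg2 are the 3 red points, and Sox9 and Serpina3n are the 2 genes to the right of 0.

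Promoter sequence is shown for Slc4a4 and Ndrg2, which fell, and for the reactive genes Gfap and Cd44, so that both kinds of gene can be read side by side. The letters come from RefSeq (GRCm38.p6), lie before a RefSeq start site and outside GENCODE M21 exons, and are written 5′ to 3′ along the gene's strand. Capitals mark CCAAT read from either strand (ATTGG in Slc4a4); neither TATAAA nor TTCNNNGAA, a STAT-type motif, is present in the 4 stretches. The stretches of Slc4a4, Ndrg2 and Gfap precede start sites that lie inside the annotated gene, and FPKM per gene does not tell start sites apart. Only for Cd44 is the sequence before the annotated 5′ end of the gene shown, so the stretches are of unlike kinds. The Ndrg2 stretch has 163 bases and ends 87 bases before the start site; the other stretches have 250.
Slc4a4, GRCm38.p6 chr5:89027716-89027965, plus strand: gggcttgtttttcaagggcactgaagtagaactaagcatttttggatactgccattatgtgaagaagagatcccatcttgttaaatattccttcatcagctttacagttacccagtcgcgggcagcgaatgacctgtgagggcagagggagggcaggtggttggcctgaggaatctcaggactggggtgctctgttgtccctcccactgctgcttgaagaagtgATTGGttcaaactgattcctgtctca
Ndrg2, GRCm38.p6 chr14:51913576-51913738, minus strand: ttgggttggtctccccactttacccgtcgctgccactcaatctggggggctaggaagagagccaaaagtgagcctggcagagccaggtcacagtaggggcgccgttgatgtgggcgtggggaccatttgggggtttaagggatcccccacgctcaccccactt
Gfap, GRCm38.p6 chr11:102897201-102897450, minus strand: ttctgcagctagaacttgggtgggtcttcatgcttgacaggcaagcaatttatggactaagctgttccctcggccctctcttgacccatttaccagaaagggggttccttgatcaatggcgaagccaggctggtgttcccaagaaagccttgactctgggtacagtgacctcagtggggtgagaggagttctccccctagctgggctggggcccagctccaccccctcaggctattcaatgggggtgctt
Cd44, GRCm38.p6 chr2:102901666-102901915, minus strand: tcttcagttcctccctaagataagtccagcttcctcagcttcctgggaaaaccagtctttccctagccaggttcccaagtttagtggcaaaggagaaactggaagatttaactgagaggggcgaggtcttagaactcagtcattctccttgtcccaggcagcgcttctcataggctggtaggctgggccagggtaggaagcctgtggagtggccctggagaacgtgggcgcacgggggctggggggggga
RefSeq windows were matched for 27 of the 32 genes. For each of the 27, only the window with the most bases outside exons was used. The 32851 windows of all genes were not picked this way, so the shares compare unlike sets. In windows of 250 bases before the start site, on either strand, CCAAT was present for 12 of the 27 genes (44.4%, against 33.8% of 32851 windows of all genes), and TTCNNNGAA for 3 (Slc1a3, Slc7a11 and Acsbg1; 11.1%, against 7.02%). TATAAA was present for 3 (Slc1a3, Gpc5 and Vim; 11.1%, against 12.4%) and the E-box CANNTG for 15 (55.6%, against 66.2%). ACAAAG, a SOX-type motif, was present for 2 (Slc7a11 and Apoe; 7.41%, against 16.5%), and the palindromic nuclear factor I motif for none, against 0.0365% of all windows. Of the 27 windows 7 lie wholly in annotated exons (Fgfr3, Gli3, Glul, Hepacam, Id3, Mlc1 and Vim), and these hold 4 of the CCAAT matches, 5 of the E-box matches and 1 of the TATAAA matches counted by gene. A match is a description of the letters and not a binding site. The median GC content was 56.4% in the windows of these genes and 52.4% in those of all genes.

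Among ion and water transport genes, Slc4a4 had the largest change of the 29 genes tested. Slc4a4 encodes a sodium bicarbonate cotransporter through which astrocytes handle pH (ENSMUSG00000060961, chromosome 5, 88886818 to 89239653, plus strand, GRCm38). It had 12.01, 19.4, 13.6 and 19.2 FPKM in morphine replicates 1 to 4, against 25.9, 48.5, 59.8 and 33.0 FPKM in saline replicates 1 to 4. The groups did not overlap, and the saline values spread more widely than the morphine values, with the highest in replicate 3. The means were 16.0 ± 3.78 FPKM in morphine and 41.8 ± 15.2 in saline (SD, n = 4 each; log2 change −1.28 ± 0.25 SE, limma adjusted p = 0.0350). Without saline replicate 3 the log2 change was −1.09 (adjusted p = 0.0389). Slc4a4 missed the threshold without saline replicate 2 or any 1 of the morphine replicates (limma adjusted p between 0.0572 and 0.119), and also with no filter on low values (adjusted p = 0.0794).

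The other ion and water genes had smaller negative changes and did not pass. Aqp4 encodes the water channel of astrocyte endfeet. It had 51.5, 89.9, 55.0 and 65.9 FPKM in morphine libraries, against 102, 114, 71.2 and 66.2 in saline libraries. Its groups overlapped, because morphine replicate 2 lay above saline replicates 3 and 4 (log2 change −0.42 ± 0.21 SE, limma adjusted p = 0.299). Kcnj10, the inward rectifier channel that takes up potassium, had 7.92, 13.2, 12.1 and 11.3 FPKM in morphine libraries, against 14.3, 16.2, 16.2 and 12.4 in saline libraries. Only morphine replicate 2 reached into the saline range (−0.39 ± 0.16, adjusted p = 0.206). Mlc1 and Hepacam encode membrane proteins that form a complex at astrocyte junctions. In both, every morphine value lay below every saline value. Mlc1 averaged 106 ± 11.2 FPKM in morphine and 134 ± 8.92 in saline, and Hepacam 48.1 ± 3.20 in morphine and 62.9 ± 4.58 in saline (SD, n = 4 each; limma adjusted p = 0.114 for Mlc1 and 0.0698 for Hepacam).

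None of the 5 genes of glutamate and amino acid transport and glutamine synthesis passed the test, and all 5 had negative changes. Slc1a2 encodes GLT-1, the main glutamate transporter of forebrain astrocytes. It had 148, 213, 157 and 146 FPKM in morphine libraries, against 201, 281, 225 and 269.5 in saline libraries. Morphine replicate 2 lay above saline replicate 1, and the other morphine values lay below all saline values (log2 change −0.56 ± 0.15 SE, limma adjusted p = 0.0814). Slc1a3, which encodes the second astrocyte glutamate transporter GLAST, had 227, 266, 226 and 272 FPKM in morphine libraries, against 287, 311, 232 and 266 in saline libraries. These ranges overlapped widely (−0.14 ± 0.12, adjusted p = 0.559). The difference between the changes of the 2 transporter genes was not tested. Glul, the glutamine synthetase gene, had 189, 271, 233 and 239.6 FPKM in morphine libraries, against 333, 357, 254 and 294 in saline libraries, with an overlap at morphine replicate 2 and saline replicate 3 (−0.40 ± 0.14, adjusted p = 0.152). Slc7a10, a transporter gene for small neutral amino acids, had a log2 change of −0.40 ± 0.14 (SE, adjusted p = 0.150). Slc7a11, the cystine and glutamate exchanger gene, was far less abundant, at 3.68 ± 0.420 FPKM in morphine and 4.26 ± 0.490 in saline (SD, n = 4 each; −0.17 ± 0.13, adjusted p = 0.512).

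The connexin genes of astrocyte gap junctions did not pass. Gja1, for connexin 43, had 112, 126, 92.8 and 124 FPKM in morphine libraries, against 162, 149, 113 and 134 in saline libraries (log2 change −0.29 ± 0.14 SE, limma adjusted p = 0.274). Gjb6, for connexin 30, had 38.8, 45.2, 28.6 and 47.5 FPKM in morphine libraries, against 58.7, 58.9, 44.8 and 47.2 in saline libraries (−0.40 ± 0.17, adjusted p = 0.216). In both genes saline replicates 1 and 2 were above all morphine values, and saline replicate 3 lay within the morphine range.

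Among identity markers, Cyp2d22 and Ndrg2 fell and the other 5 did not pass, with negative changes in all 7. Cyp2d22 encodes a cytochrome P450 of the Cyp2d cluster, whose members are similar enough that reads may be shared (ENSMUSG00000061740, chromosome 15, 82370527 to 82380260, minus strand, GRCm38). It had 6.56, 9.31, 7.57 and 8.33 FPKM in morphine libraries, against 16.7, 18.2, 17.0 and 14.4 in saline libraries. The highest morphine value was well below the lowest saline value (log2 change −0.98 ± 0.13 SE, limma adjusted p = 0.0159, the smallest adjusted p among all genes tested). With morphine replicate 3 or 4 or saline replicate 2 left out, Cyp2d22 missed the threshold (limma adjusted p between 0.0609 and 0.0707). Ndrg2, a cytosolic protein gene used as an astrocyte marker, lies on chromosome 14 (ENSMUSG00000004558, 51905271 to 51914158, minus strand). It had 416, 466, 385 and 434 FPKM in morphine libraries, against 629.8, 696, 620.1 and 564 in saline libraries. The groups did not overlap (−0.56 ± 0.11, adjusted p = 0.0350). Ndrg2 missed the threshold when any 1 of the morphine libraries, saline replicate 1 or saline replicate 2 was left out (limma adjusted p between 0.0572 and 0.129), and also with no filter on low values (adjusted p = 0.0733).

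**Figure D3:**
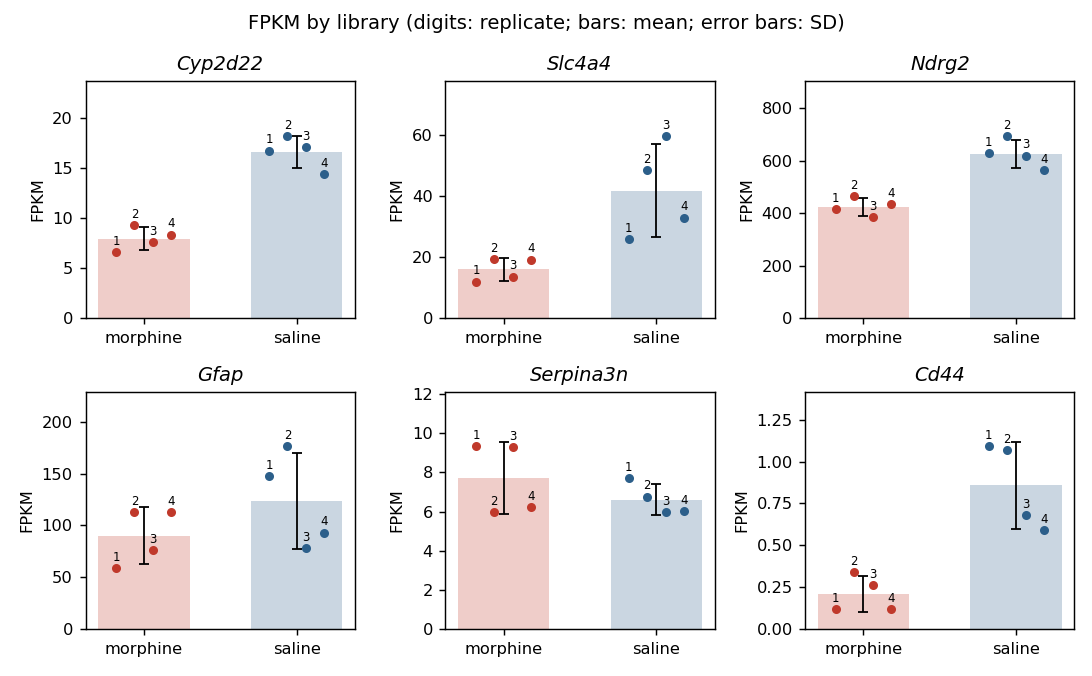
FPKM of 3 genes that fell (Cyp2d22, Slc4a4, Ndrg2) and 3 reactive genes (Gfap, Serpina3n, Cd44) in each library; digits give the replicate, bars the mean and error bars the SD over 4 libraries, with morphine left of saline. The groups are apart for the upper row and for Cd44, and overlap for Gfap and Serpina3n.

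A further 3 identity markers had groups that did not overlap. Acsbg1, an acyl-CoA synthetase gene, averaged 105 ± 14.7 FPKM in morphine and 164 ± 36.4 in saline (SD, n = 4 each; log2 change −0.62 ± 0.16 SE, limma adjusted p = 0.0728). Without saline replicate 4, its lowest saline library, the log2 change was −0.73 (adjusted p = 0.0401). Aldh1l1, a folate enzyme gene widely used to label astrocytes, averaged 29.1 ± 4.57 FPKM in morphine and 42.8 ± 7.42 in saline (−0.54 ± 0.15, adjusted p = 0.0850). Gpc5, a glypican gene, averaged 20.9 ± 2.56 FPKM in morphine and 28.6 ± 1.24 in saline (−0.44 ± 0.11, adjusted p = 0.0619), and it passed with libraries rescaled by their median ratio (−0.47, adjusted p = 0.0467). The growth factor receptor gene Fgfr3 and the calcium-binding protein gene S100b had log2 changes of −0.42 ± 0.15 and −0.37 ± 0.19 (SE, adjusted p = 0.164 for Fgfr3 and 0.299 for S100b). S100b ranged from 30.4 to 42.5 FPKM in morphine and from 35.3 to 62.9 in saline.

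Genes of secreted proteins and lipid carriers, among the most abundant of the 32, did not pass. Apoe, the main lipid carrier of the brain, which microglia can also express, had 2828, 3164, 2957 and 3576 FPKM in morphine libraries, against 4810.5, 4559, 4054 and 3361 in saline libraries. Only saline replicate 4 lay within the morphine range (log2 change −0.41 ± 0.16 SE, limma adjusted p = 0.178). Clu averaged 700.5 ± 73.5 FPKM in morphine and 1037 ± 159.6 in saline without overlap (SD, n = 4 each; −0.56 ± 0.14, adjusted p = 0.0615). It passed without saline replicate 3 (−0.64, adjusted p = 0.0381) and when mitochondrially encoded genes were left out before rescaling (−0.60, adjusted p = 0.0452). Sparcl1, a secreted protein gene linked to synapse formation, averaged 533 ± 118 FPKM in morphine and 602 ± 75.8 in saline (−0.19 ± 0.17, adjusted p = 0.561).

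None of the 4 transcription regulators passed, and Sox9 was the 1 of them with a positive change. Sox9, a nuclear factor of the astrocyte lineage, had 23.8, 19.4, 23.6 and 22.3 FPKM in morphine libraries, against 18.9, 20.0, 19.4 and 19.7 in saline libraries (log2 change 0.18 ± 0.10 SE, limma adjusted p = 0.364). The saline values lay close together, and only morphine replicate 2 lay among them. Id3 and Id4 encode inhibitors of basic helix-loop-helix factors. Id3, which vessel cells also express, averaged 46.8 ± 4.90 FPKM in morphine and 59.4 ± 17.6 in saline (SD, n = 4 each; adjusted p = 0.407). Id4 averaged 4.23 ± 1.42 FPKM in morphine and 4.48 ± 0.765 in saline (adjusted p = 0.831). Gli3, a Hedgehog pathway factor gene, had 0.680, 1.25, 1.81 and 0.450 FPKM in morphine libraries, against 1.76, 2.18, 2.01 and 1.87 in saline libraries. In 2 morphine libraries it was below the minimum of 1 FPKM, so that it entered the test through its saline values (−0.57 ± 0.20, adjusted p = 0.151).

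None of the 3 reactive genes tested passed. Gfap, the intermediate filament gene most used to mark reactive astrocytes (ENSMUSG00000020932, chromosome 11, 102887336 to 102900912, minus strand, GRCm38), had 58.6, 113, 75.9 and 113 FPKM in morphine libraries, against 147, 176, 77.8 and 93.0 in saline libraries. Saline replicates 1 and 2 were above every morphine value, and saline replicates 3 and 4 lay within the morphine range (log2 change −0.43 ± 0.28 SE, limma adjusted p = 0.433). Vim, another intermediate filament gene, which vessel and ependymal cells also express, had 6.98, 11.4, 8.62 and 7.94 FPKM in morphine libraries, against 11.4, 8.87, 12.9 and 10.5 in saline libraries (−0.30 ± 0.16, adjusted p = 0.337). Serpina3n, an acute-phase protease inhibitor gene from a cluster of similar genes that may share reads, had 9.33, 5.99, 9.28 and 6.23 FPKM in morphine libraries, against 7.70, 6.76, 5.99 and 6.02 in saline libraries. Morphine replicates 1 and 3 were above the saline range and the other morphine values were within it or at its lower end (0.17 ± 0.17, adjusted p = 0.606).

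The other 3 reactive genes were too low to pass the filter. Cd44, a hyaluronan receptor gene, had 0.120, 0.340, 0.260 and 0.120 FPKM in morphine libraries, against 1.09, 1.07, 0.680 and 0.590 in saline libraries. Its morphine values were all below its saline values. Fitted with no filter on low values, its log2 change was −0.61 (limma adjusted p = 0.0646 over all genes). Lcn2, the lipocalin gene, had 0.570, 0.400, 0 and 0.230 FPKM in morphine libraries, against 2.15, 1.21, 0.370 and 1.15 in saline libraries (−0.73, adjusted p = 0.193, fitted likewise). Nes, the intermediate filament gene of progenitors and some vessel cells, had 0.220, 0.360, 0.470 and 0.410 FPKM in morphine libraries, against 0.350, 0.570, 0.670 and 0.630 in saline libraries (−0.19, adjusted p = 0.339, fitted likewise). Over all 6 reactive genes fitted this way the median log2 change was −0.36.

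Averaged over genes, the homeostatic genes had a lower level in every morphine library than in any saline library. The mean of log2(FPKM + 1) over the 26 homeostatic genes lay between 5.68 and 5.97 in morphine libraries and between 6.10 and 6.40 in saline libraries. Over the 6 reactive genes it lay between 2.23 and 2.44 in morphine libraries and between 2.47 and 2.85 in saline libraries, but this separation rested on Lcn2, Cd44 and Nes, which did not pass the filter. Over the 3 reactive genes tested the groups overlapped, at 4.09, 4.42, 4.30 and 4.28 in morphine replicates 1 to 4, against 4.66, 4.58, 4.30 and 4.30 in saline replicates 1 to 4. The difference between the homeostatic and the reactive change was not tested. Within groups, replicate 2 was the highest library for most genes: morphine replicate 2 for 18 and saline replicate 2 for 20 of the 29 genes tested. Morphine replicate 1 was the lowest morphine library for 15 of the 29 genes, and saline replicate 4 the lowest saline library for 11.

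**Figure D4:**
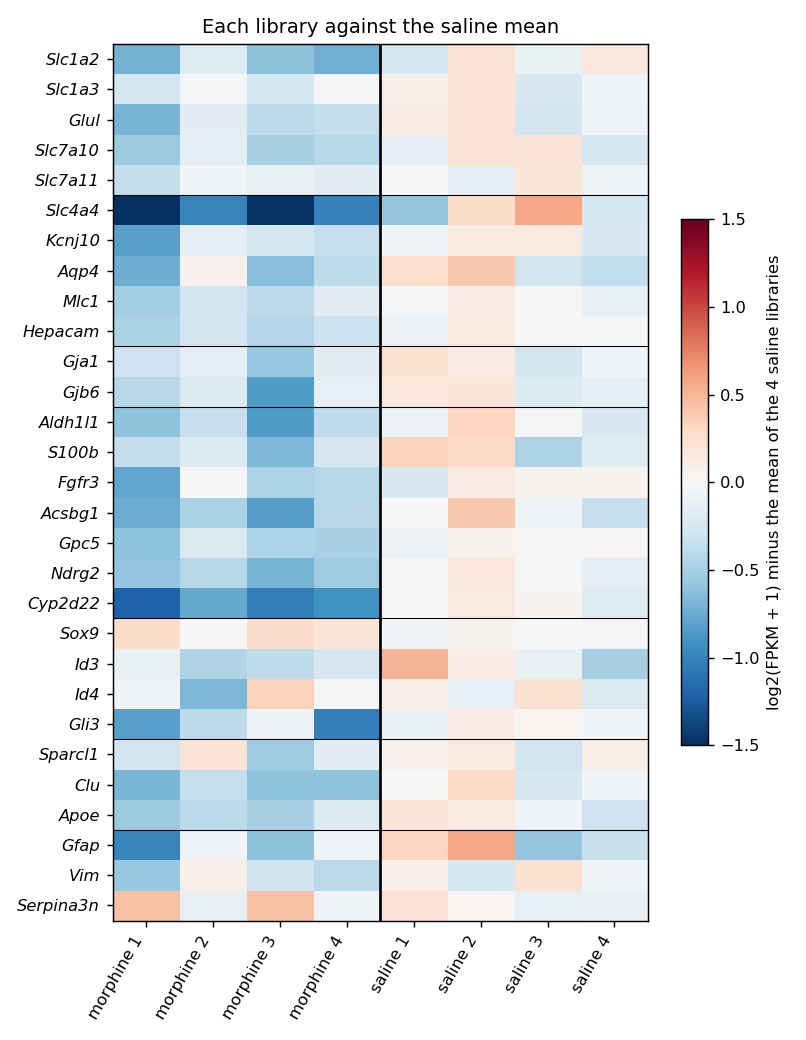
Level of the 29 genes tested in each library as log2(FPKM + 1) minus the mean of the 4 saline libraries, with rows grouped by role and morphine columns left of saline columns; blue is below and red above the saline mean, and the colour scale ends at 1.5 on either side. Slc4a4 and Cyp2d22 are the darkest rows in the morphine columns, and Gfap, S100b and Aqp4 are redder in saline replicates 1 and 2 than in saline replicates 3 and 4.

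Further astrocyte genes, from a list of 60 that leaves out the genes above, had a negative change in 53 cases. All 60 were tested, 9 fell (against 1.48% of all genes tested) and 51 did not pass, while none rose, and the median log2 change was −0.35. All 4 morphine values were below all 4 saline values for 17 of the 60, against 6.10% of all genes tested. The count of genes that fell was 9 without saline replicate 3 and 11 without saline replicate 4, 6 without morphine replicate 2, and 2 without morphine replicate 1 or without saline replicate 1. It was 0 when morphine replicate 3, morphine replicate 4 or saline replicate 2 was left out. Prodh, the proline dehydrogenase gene, had 17.6, 18.5, 13.1 and 16.3 FPKM in morphine libraries, against 26.5, 38.4, 32.3 and 32.7 in saline libraries (log2 change −0.94 ± 0.14 SE, limma adjusted p = 0.0207). Lgi4, a secreted glial protein gene, averaged 10.5 ± 1.42 FPKM in morphine and 17.5 ± 0.995 in saline (SD, n = 4 each; adjusted p = 0.0250). The receptor gene Gpr37l1 fell by 0.67 ± 0.13 and the chemokine gene Cxcl14 by 0.74 ± 0.14 (log2, SE; adjusted p = 0.0339 for Gpr37l1 and 0.0341 for Cxcl14). The neurotensin receptor gene Ntsr2 fell by 0.83 ± 0.11 (adjusted p = 0.0165), and Myoc, a secreted glycoprotein gene, had a log2 change of −2.78 ± 0.50 (adjusted p = 0.0287). Myoc had 1.00, 9.61, 2.53 and 1.62 FPKM in morphine libraries, against 40.9, 34.4, 22.3 and 11.8 in saline libraries. Bcan and Aldoc also fell (limma adjusted p = 0.0449 for Bcan and 0.0462 for Aldoc). At an unadjusted p under 0.05 (limma), 27 of the 60 were lower, against 10.1% of all genes tested, and 4 were higher, against 10.0%. The 4 were named after their values were seen: Nfia, Slc14a1, Fjx1 and Fabp7. Nfia, a transcription factor of gliogenesis, had a log2 change of 0.65 ± 0.22 (adjusted p = 0.135), and Fabp7, a fatty acid binding protein of immature astrocytes, 0.53 ± 0.20 (adjusted p = 0.176); the adjusted p was 0.159 for Slc14a1 and 0.175 for Fjx1.

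Lists of genes described for reactive astrocytes in injury, neuroinflammation and ischaemia held few genes that could be tested. Of all genes tested, 1.48% fell, 1.04% rose and 48.0% had a negative change. Of 16 pan-reactive genes 15 were matched and 7 tested, and 1 fell, Ifitm3, an interferon-induced membrane protein gene whose close relatives may share reads (log2 change −1.29 ± 0.22 SE, limma adjusted p = 0.0264; list median −0.07). Ifitm3 missed the threshold without any 1 of the morphine libraries and without saline replicate 1 or 2 (limma adjusted p between 0.0519 and 0.0927), and also with no filter (0.0646). Of the 11 neuroinflammation-type genes 9 were tested and 1 fell, the class I antigen presentation gene H2-D1, from a family that may share reads (−0.72 ± 0.15, adjusted p = 0.0449; list median −0.62). H2-D1 missed the threshold when any 1 library except saline replicate 4 was left out (limma adjusted p between 0.0630 and 0.138), and also with no filter (0.0829) or no trend (0.0521). A negative change was found in 4 of the 7 pan-reactive and in 8 of the 9 neuroinflammation-type genes tested. All 4 morphine values lay below all 4 saline values for 1 of the 7 and 3 of the 9, against 6.10% of all genes tested. At an unadjusted p under 0.05 (limma), 2 of the 7 and 5 of the 9 were lower, against 10.1%. Of the 12 ischaemia-type genes 5 were tested and none passed, with a negative change in 3 of the 5. Those with the smallest p were Tm4sf1, which endothelial cells express, at −0.51 ± 0.15, S100a10 at 0.76 ± 0.26 and the cyclooxygenase gene Ptgs2 at 0.58 ± 0.21 (adjusted p = 0.0933 for Tm4sf1, 0.139 for S100a10 and 0.158 for Ptgs2).

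**Figure D5:**
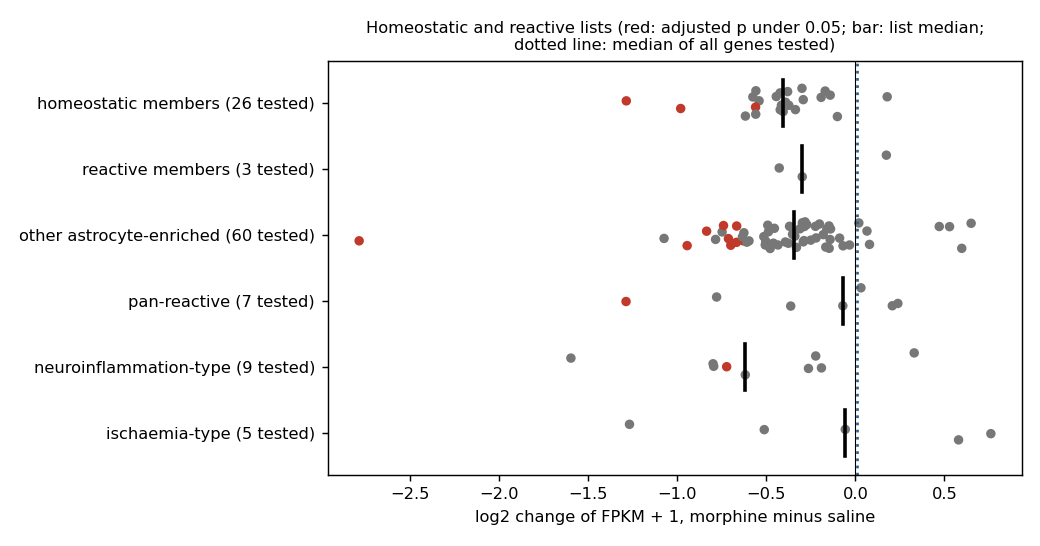
Log2 change of FPKM + 1 (morphine minus saline) of each tested gene in the homeostatic and reactive genes and in 4 further lists; red marks an adjusted p under 0.05, black bars are list medians and the dotted line is the median of all genes tested, 0.01. The medians are −0.40 for homeostatic and −0.30 for reactive genes, and −0.35, −0.07, −0.62 and −0.06 for the further lists from top to bottom.

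Markers of other cell types differed between the same libraries. Of all genes tested, 1.48% fell, 1.04% rose and 48.0% had a negative change. All 4 morphine values lay below all 4 saline values for 6.10%, and 10.1% were lower at an unadjusted p under 0.05 (limma). Of 12 endothelial markers 4 fell, with a median log2 change of −0.47 over the 12, and their summed level lay between 176 and 200.6 FPKM in morphine libraries and between 257 and 286 in saline libraries. For 7 of the 12 endothelial markers all morphine values lay below all saline values, and 10 were lower at an unadjusted p under 0.05 (limma). Both counts include Cdh5, which was under 1 FPKM in all 4 morphine libraries and passed the filter on low values through its saline values. Of 13 tested markers of mural cells, fibroblasts and meninges 3 fell, with a median log2 change of −0.91 over the 13. For 4 of the 13 all morphine values lay below all saline values, and 8 were lower at an unadjusted p under 0.05 (limma). Sums over the 16 listed lay between 105 and 136 FPKM in morphine and between 166 and 313 in saline. None of 14 oligodendrocyte markers passed, but all 14 had a negative change, with a median log2 change of −0.34, near that of the astrocyte lists. For 4 of the 14 the groups did not overlap, and 7 were lower at an unadjusted p under 0.05 (limma). Their sums lay between 2066 and 3291 FPKM in morphine and between 3291 and 3748 in saline. None of 12 microglial markers passed, with a median log2 change of −0.10 and sums between 559 and 614 FPKM in morphine and between 532 and 751 in saline. For none of the 12 were the groups apart, and none was at an unadjusted p under 0.05 (limma). Of 6 tested ependymal and choroid plexus markers 1 fell, with a median log2 change of −1.04 over the 6. For 3 of the 6 all morphine values lay below all saline values, and 3 were lower at an unadjusted p under 0.05 (limma). Sums over the 12 listed lay between 9.78 and 26.7 FPKM in morphine and between 17.5 and 70.7 in saline. Of 17 markers of striatal projection neurons 12 fell, with a median log2 change of −2.29. For 15 of the 17 all morphine values lay below all saline values, and 16 were lower at an unadjusted p under 0.05 (limma). Both counts include Drd2, under 1 FPKM in all 4 morphine libraries. Of 11 tested cortical neuron markers 1 rose, 9 had a positive and 2 a negative change, and the median was 0.62. For 4 of the 11 all morphine values lay above all saline values, against 6.56% of all genes tested. Of the markers that fell, Col3a1 (mural, fibroblast and meningeal list), Clic6 (ependymal and choroid plexus list) and Isl1 (striatal list) were under 1 FPKM in all 4 morphine libraries and passed the filter on low values through their saline values. No marker of these 7 lists was at 0 in every library. The part of these differences, and of the mitochondrial share, in the changes of the astrocyte genes was not tested.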

How the data were processed

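RNA-seq libraries were made from total RNA of the nucleus accumbens with oligo-dT priming, template switching and PCR amplification, per the labels' protocols. The authors deposited FPKM values for 22337 genes in 8 libraries. The submitters' processing notes name StringTie 1.3.1, RSEM, HISAT2, Bowtie2 2.2.8 and fastp 0.18.0, and the build mm10; the sources used here state neither the role of each tool nor the annotation or strand setting. Of 12547 low values, 19.3% lay within 0.1 of a whole multiple of the lowest value of the same gene, against 20% for even spacing, so whole reads were not recovered and no count test was used. Gene symbols and coordinates (1-based) are from GENCODE M21 (GRCm38, the assembly mm10 names), which matched 22232 identifiers. For 8 of the 32 genes an annotated exon of a gene on the other strand overlaps their exons (Slc1a2, Glul, Slc7a10, Aldh1l1, Fgfr3, Gpc5, Id4, Gli3), and reads of the 2 strands cannot be told apart where strand was not used.

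Values were tested as log2(FPKM + 1) with limma 3.58.1 in R 4.3.3, with empirical Bayes and a mean-variance trend, two-sided, morphine against saline over all 8 libraries, for 12536 genes that reached an FPKM of 1 in 4 or more libraries. The procedure was also run on simulated data in which every gene varied independently. That run does not cover shifts shared by many genes of a library. The 32 genes and the lists were chosen with earlier results of these data known, so lists are described by counts and medians only. Named genes are all 32, the genes of each further list past the threshold (at most the 6 with the smallest p) or, where none passed, the 3 with the smallest p. Outside this rule, Bcan, Aldoc, Nfia, Slc14a1, Fjx1 and Fabp7 of the further astrocyte list are named as well. Rorb stands in both the further astrocyte list and the cortical list. Alternatives were another pseudocount, other filters, another scaling, a replicate block, no trend and leaving out each library. Some genes of the further lists are not reported by name here. Of a gene's promoter windows, the one with the most bases outside exons was used; for 7 genes it had no such base.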

Additional observations from a re-analysis of the deposited data

How the results depend on the processing

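Read depth is unknown, and 4 libraries per group limit precision. The 29 genes tested kept the sign of their change under every alternative in which they were tested, except that the log2 change of Id4 was 0.090 without morphine replicate 2 (range with 1 library left out −0.25 to 0.090). The number of the 32 genes that fell was 3 in the reported fit, 1 (Cyp2d22) with no filter on low values and between 0 and 4 with 1 library left out; none rose under any alternative. Over the further astrocyte list 9 fell, 1 did with no filter, and between 0 and 11 did with 1 library left out. Over all genes 186 fell and 130 rose. These counts were 111 lower with a minimum FPKM of 5, 9 lower and 8 higher with no filter, 84 higher with no trend, 77 higher (211 lower) with mitochondrially encoded genes removed, and between 0 and 212 lower and 0 and 183 higher with 1 library left out. At the 0 counts (without morphine replicate 3, morphine replicate 4 or saline replicate 2) limma gave 1936, 2120 and 1955 genes at an unadjusted p under 0.05. The scalings moved the median of all genes by less than 0.1 on the log2 scale.

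Between 0 and 2 pan-reactive and between 0 and 2 neuroinflammation-type genes fell with 1 library left out, where 1 of each fell in the reported fit; 0 of each fell with no filter, and 0 neuroinflammation-type genes fell with no trend. Of the ischaemia-type genes between 0 and 1 fell with 1 library left out. The median of the pan-reactive list was −0.36 with a minimum FPKM of 5. That of the ischaemia-type list was 0.12 with that minimum and lay between −0.16 and 0.35 with 1 library left out, being 0.29 without morphine replicate 4, 0.24 without saline replicate 1, 0.35 without saline replicate 2 and 0.13 without saline replicate 3. The cause of these differences was not tested.

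Groups share replicate numbers, but over all genes tested same-numbered libraries did not deviate together (correlation of deviations from the group means between −0.20 and 0.05, and 1 of 8 libraries correlated best with its own number). This was not computed for the 29 astrocyte genes alone, for most of which replicate 2 was the highest library in both groups (18 in morphine, 20 in saline). With the replicate block 0 of the 32 genes, 0 of the further astrocyte list, 0 of the pan-reactive list, 0 of the neuroinflammation-type list, and 3 lower and 2 higher of all genes passed (2352 at an unadjusted p under 0.05). The log2 changes were the same as without the block, and the adjusted p was 0.0537 for Cyp2d22, 0.0570 for Slc4a4 and 0.0881 for Ndrg2.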
